A study of Arabidopsis thaliana with 6 samples.

Results

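The regions described here held called peaks of both WIP proteins of the study at the start of genes. They are the peaks of *Dex:TT1-GFP* that overlapped, by 1 bp or more, a peak in each of the 2 *Dex:NTT-GFP* libraries and whose TT1 summit lay within 200 bp, upstream or downstream, of the nearest annotated transcription start site (TSS). By this rule 2451 regions were found among 12908 TT1 peaks, 16167 peaks of NTT replicate 1 and 7447 peaks of NTT replicate 2. Among all TT1 peaks, 5033 (39.0%) were common to the 3 libraries. The other common regions lay farther upstream of a TSS, up to 1000 bp (938 regions), inside genes beyond 200 bp (580) or elsewhere, here called distal (1064). The members were selected on the measured peak calls and summits, so that their number, overlap, position and height are descriptions without a test.

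*TT1* and *NTT* were fused to GFP and induced with 1 µM dexamethasone (Dex) for 8 h in 7-day-old Col-0 seedlings of Arabidopsis. Chromatin was fixed with 1% formaldehyde, sheared to about 300 bp and precipitated with an anti-GFP antibody. There was 1 TT1 library and 2 NTT libraries, each with an input library of the same line, and each from pooled whole seedlings. All plants carried a transgene and all received Dex, and no library of GFP alone or of uninduced plants was analysed here. The inputs entered the authors' peak calling and have no peak list here. TT1 has 1 library and thus no replicate error. The read depth of the libraries is not in the files, so that fold enrichments were compared within a library and not between libraries. The 95% Wilson intervals given with shares cover counting error only, and regions are not replicates of a treatment.

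WIP proteins are plant zinc finger transcription factors. TT1 (TRANSPARENT TESTA 1) is known for its part in flavonoid pigmentation of the seed coat, and NTT (NO TRANSMITTING TRACT) for the tract that guides pollen tubes in the ovary. Around plant start sites several short sequences recur. GAGA repeats are bound by BASIC PENTACYSTEINE (BPC) proteins, which can recruit Polycomb complexes. The G-box CACGTG and its core ACGTG are bound by bHLH and bZIP factors, including those of light, jasmonate and abscisic acid signalling. The W-box, TTGACC or TTGACT, is bound by WRKY factors, site II elements, TGGGCC or TGGGCT, by TCP factors, and the telo box AAACCCTA by telomere repeat binding proteins. These words were searched on both strands. A match is a description of the sequence and not evidence that the factor was there. ACGTG is contained in CACGTG, so those 2 searches overlap. Where matches are counted, each CACGTG counts as 2 matches to ACGTG, 1 on each strand.

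The sequences of 13 regions are shown because they hold the words on which the results turn, or because the peak was among the highest and had no such word beside its summit. They were read from the TAIR10.1 assembly (RefSeq), on the coding strand of the gene from 5′ to 3′. Capitals mark every match to the 6 searched sequences on either strand. Stretches of 30 bases are centred near a match inside an exon, and the longer ones lie around the TT1 summit outside annotated exons. The first 6 lie at the HAD-like hydrolase gene AT3G55960 (chr3:20763091-20763181, minus strand), the corepressor gene *WSIP2* (chr3:5372244-5372273, minus strand), the homeobox genes *HB16* (chr4:18573001-18573030, minus strand) and *BLH4* (chr2:10112955-10112984, minus strand), the auxin response factor gene *ARF4* (chr5:24312606-24312635, minus strand) and the receptor kinase gene AT1G09970 (chr1:3252270-3252299, plus strand). In all 6 the repeat reads as CT on the coding strand, so that GAGAGAG is on the template strand.
AT3G55960: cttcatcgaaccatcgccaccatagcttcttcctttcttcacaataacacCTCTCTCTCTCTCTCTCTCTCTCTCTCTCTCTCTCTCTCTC
WSIP2: cCACGTCTCTCTCTCTCTCttctccaaagt
HB16: gattaaaagcttCTCTCTCTCTCTCTCTCt
BLH4: CTCTCTCTCTCTCTCTCTCtataccatata
ARF4: ctccctctctttCTCTCTCTCTCTCTCttt
AT1G09970: ctcgcgcccgcCTCTCTCTCTCTCTCTCTC

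The next 5 hold ACGTG or a W-box beside the TT1 summit. They lie at the MYB-like gene *RVE2* (chr5:14753214-14753304, minus strand), the transporter gene *G3Pp4* (chr4:9779940-9780017, minus strand), the arginine decarboxylase gene *ADC2* (chr4:16563015-16563044, minus strand), AT3G44100 (chr3:15867614-15867704, minus strand), which also shows site II elements, and *WRKY7* (chr4:12571690-12571719, plus strand).
RVE2: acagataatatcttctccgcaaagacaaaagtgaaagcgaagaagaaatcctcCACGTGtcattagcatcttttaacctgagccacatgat
G3Pp4: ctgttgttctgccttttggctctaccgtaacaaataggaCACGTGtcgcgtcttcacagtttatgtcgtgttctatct
ADC2: gtcataaccttctCACGTtggttcctgatt
AT3G44100: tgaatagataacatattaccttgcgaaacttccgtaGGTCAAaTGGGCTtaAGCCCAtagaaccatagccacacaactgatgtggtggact
WRKY7: gtggtggtcgatTTGACTgatgcactatca

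The last 2 come from the highest-ranked region, at the protein kinase gene AT2G39360 (chr2:16440545-16440620, minus strand), and from *NAC102* (chr5:25528282-25528372, minus strand). Neither stretch held any of the 6 words. Outside the stretch shown, AT2G39360 had ACGTG 64 bp and a W-box 85 bp from the TT1 summit. It thus counts as a region with these words, while *NAC102* had none within 100 bp.
AT2G39360: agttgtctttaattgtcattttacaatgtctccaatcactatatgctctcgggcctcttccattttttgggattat
NAC102: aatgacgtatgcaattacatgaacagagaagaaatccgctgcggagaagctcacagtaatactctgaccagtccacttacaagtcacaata

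TT1 peaks at start sites were common to all libraries more often than TT1 peaks elsewhere. Of 4888 TT1 peaks with a summit within 200 bp of a TSS, 2451 were common (50.1%, 48.7 to 51.5), compared with 2582 of 8020 others (32.2%, 31.2 to 33.2). The gap was mostly in NTT replicate 2, which overlapped 53.0% of the TT1 peaks at start sites and 34.4% of the others. NTT replicate 1, with more peaks, overlapped 79.1% at start sites and 71.4% of the others. How far the different number of peaks in the 2 NTT libraries enters this gap was not tested.

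The 2451 regions had 2448 different nearest genes, and 3 genes carried a pair of regions. A protein-coding gene was nearest to 2249 regions (91.8%), a long non-coding RNA gene to 140 (5.71%), tRNA genes and transcribed pseudogenes to 6 each, and microRNA genes, snRNA genes and other pseudogenes to 4 each. The protein-coding genes with a region numbered 2247 of 27444 (8.19%), and this share is the background for the gene families below. With a −log10 q of at least 20 in every library it was 5.43%, and without NTT replicate 2 it was 12.8%. The regions were spread over the 5 chromosomes, with 676 on chromosome 1, 368 on chromosome 2, 473 on chromosome 3, 373 on chromosome 4 and 561 on chromosome 5.

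Most summits lay in the first stretch of the transcribed sequence. The TT1 summit was in a 5′ UTR in 1454 regions (59.3%), in intergenic sequence in 664 (27.1%), in a non-coding exon in 147, in coding sequence in 121, in a 3′ UTR in 37 and in an intron in 28. It was upstream of the TSS in 960 regions (39.2%, 37.3 to 41.1), of which 662 were intergenic and 194 in the 5′ UTR of another transcript. The median summit was 20 bp downstream of the TSS in TT1 (quartiles −37 and 80), 43 bp in NTT replicate 1 (−28.5 and 106) and 27 bp in NTT replicate 2 (−47 and 91). Only the TT1 summit was bound by the rule to lie within 200 bp, and both NTT summits did so as well in 2145 regions (87.5%).

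**Figure D1:**
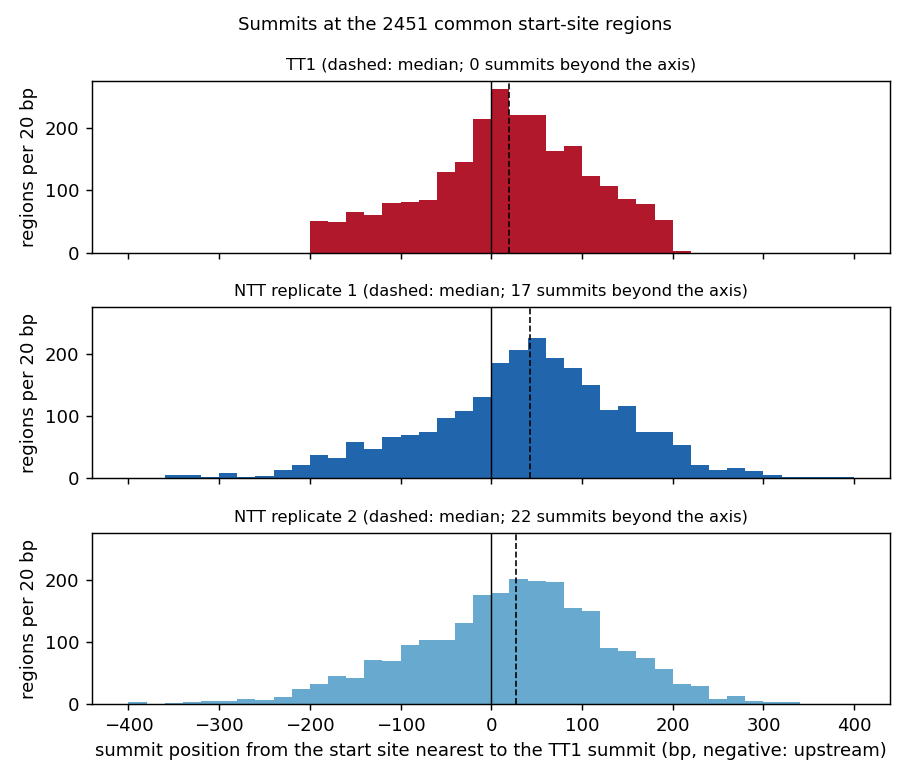
Number of common start-site regions by position of the summit, in bp from the TSS nearest to the TT1 summit, for the 3 ChIP libraries. Bars count regions in 20 bp bins, the solid line is the TSS and the dashed line the median, which is 20 bp for TT1, 43 bp for NTT replicate 1 and 27 bp for NTT replicate 2.

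The summits of the 2 proteins were close together, at peaks that the rule required to overlap. Where several NTT peaks overlapped a TT1 peak, the one with the summit nearest to the TT1 summit was used. This concerned 135 regions in NTT replicate 1 and 82 in NTT replicate 2. TT1 and NTT replicate 1 summits were a median of 27 bp apart (quartiles 12 and 57), and TT1 and NTT replicate 2 summits 29 bp (12 and 59). The 2 NTT libraries, which share the protein, were 23 bp apart (10 and 48). Within 100 bp of the TT1 summit were 87.0% of the replicate 1 summits and 87.6% of the replicate 2 summits. The same medians were 25 to 33 bp in the other position classes, near those of the start-site regions. Read along the gene, the replicate 1 summit was downstream of the TT1 summit in 1465 regions (59.8%, 57.8 to 61.7), with a median shift of 9 bp. On the plus strand this was so in 727 of 1221 regions and on the minus strand in 738 of 1230. Replicate 2 summits were downstream in 1264 regions (51.6%, 49.6 to 53.5), with a median shift of 2 bp, so that the 2 NTT libraries differed in this measure.

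A few named regions showed how far summits could part. At *WSIP2* the summits lay 35 bp (TT1), 40 bp (NTT replicate 1) and 40 bp (NTT replicate 2) downstream of the TSS. At *RVE2* the TT1 summit was at −171 bp and the NTT summits at 47 and 19 bp. At *JAZ6*, a jasmonate repressor gene, the TT1 summit was at −142 bp and the NTT summits lay on either side of the TSS, at 294 bp in replicate 1 and −336 bp in replicate 2. At *IAA2*, an auxin-inducible repressor gene, the values were −80 bp in TT1 and 120 and −132 bp in NTT. At *IAA2* the replicate 2 summit was thus 52 bp from the TT1 summit and the replicate 1 summit 200 bp away, while at *JAZ6* both NTT summits lay far from that of TT1. The NTT peaks at *JAZ6* did not overlap each other and met different parts of the TT1 peak. The rule asked for overlap of peaks and not for agreement of summits. With NTT summits within 100 bp of the TT1 summit, 1 of 10 JAZ genes had a region, beside 6.66% of all protein-coding genes.

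Peak height is given as the fold enrichment that the authors' peak caller wrote for each summit, a ratio over the local background. Over the start-site regions the median fold enrichment was 4.63 for TT1 (quartiles 3.74 and 5.77), 7.79 in NTT replicate 1 (6.13 and 9.65) and 4.07 in NTT replicate 2 (3.54 and 4.77). Over all peaks of each library the medians were 3.99, 5.90 and 3.94. In TT1 the start-site regions were lower than the common regions upstream (4.63 and 5.24) and distal (4.63 and 5.33) and near those inside genes (4.71). NTT replicate 1 showed no such step, with 7.79 at start sites, 7.81 upstream, 7.62 inside genes and 7.83 in distal regions. NTT replicate 2 had 4.07, 4.12, 3.99 and 4.24 in the same order. TT1 peaks were also narrower at start sites, with a median of 381 bp, than upstream (498.5 bp), inside genes (437.5 bp) and distal (473 bp).

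**Figure D2:**
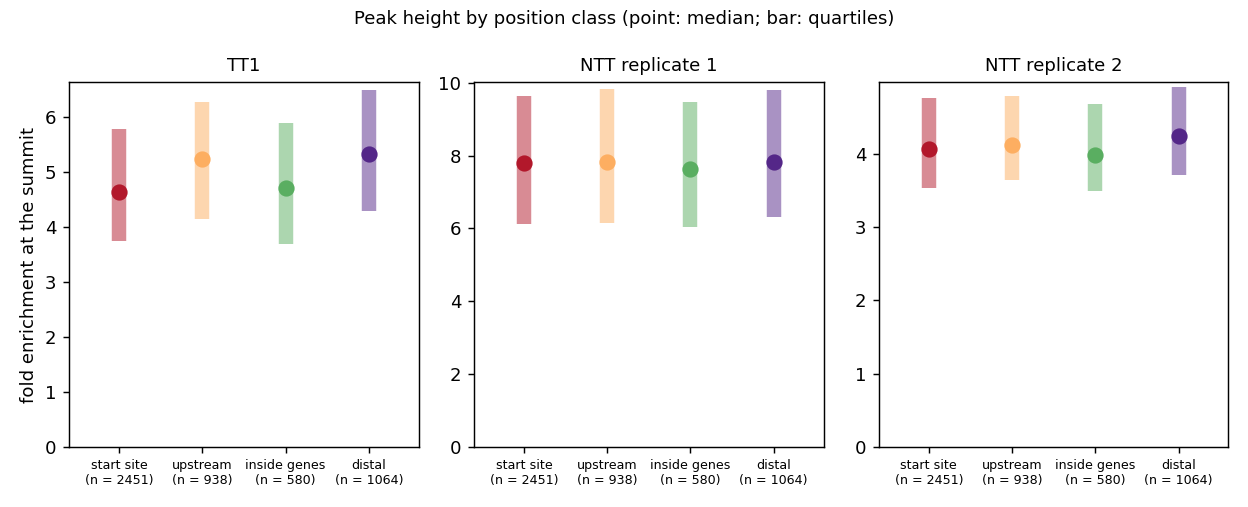
Fold enrichment at the summit (vertical axis, authors' ratio) of the common regions by position class, 1 panel per ChIP library. Points are medians and bars run between the quartiles. In TT1 the start-site median of 4.63 is below the upstream median of 5.24 and the distal median of 5.33, and in NTT replicate 1 the 4 medians lie between 7.62 and 7.83.

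Peak height followed the position of the TT1 summit differently in the libraries. For every library the regions were grouped by the TT1 summit, and NTT heights were not grouped by the NTT summits themselves. In TT1 the median fold enrichment was 4.91 at summits more than 100 bp upstream of the TSS, 4.69 from there to the TSS, 4.58 in the first 100 bp downstream and 4.60 beyond. In NTT replicate 1 the order was the other way, with 7.23, 7.58, 7.94 and 8.17, and in NTT replicate 2 the values were 4.03, 4.07, 4.04 and 4.20. Across the 2451 regions, which share library and depth, the fold enrichments had a Spearman rho of 0.399 between TT1 and NTT replicate 1, 0.336 between TT1 and NTT replicate 2 and 0.454 between the NTT libraries.

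The 10 regions with the best mean rank over the libraries belonged to genes of several kinds. AT2G39360, of a protein kinase, had a TT1 fold enrichment of 8.79, with 15.4 for NTT replicate 1 and 7.33 for NTT replicate 2. Values for the genes that follow are in the same order of libraries. AT1G54740, of a FANTASTIC FOUR-like protein, had 8.45, 15.1 and 7.94. *GLT1*, of NADH-dependent glutamate synthase, an enzyme of nitrogen assimilation, had 8.16, 16.2 and 8.27. All 3 stood far above the medians of 4.63, 7.79 and 4.07 in every library. *NAC102*, of a NAC transcription factor, had 7.98, 13.9 and 7.58. *ERD5*, of proline dehydrogenase, which breaks down proline, had 8.41, 13.5 and 6.64. *ARF4*, of an auxin response factor with a part in organ polarity, had 7.64, 15.9 and 6.80. AT1G09970 had 7.90, 13.4 and 6.96, and its window held 20 matches to GAGAGAG. The remaining 3 were AT4G29780, annotated as a nuclease, and the non-coding genes AT5G09170 and AT5G00425. AT5G09170 had the highest TT1 value of all 12908 peaks, 10.5. Its window held 3 matches to CACGTG, which made up its 6 matches to ACGTG, and 3 matches to GAGAGAG.

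**Figure D3:**
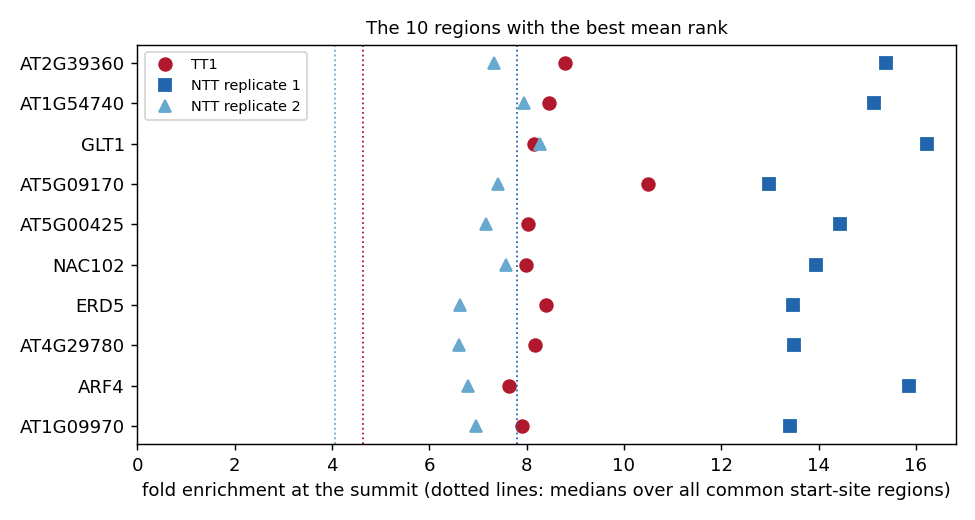
Fold enrichment at the summit (horizontal axis) of the 10 common start-site regions with the best mean rank, 1 row per gene, for TT1, NTT replicate 1 and NTT replicate 2. Dotted lines are the medians of 4.63, 7.79 and 4.07 over all start-site regions, and every point lies above the line of its library.

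The GAGA repeat was more frequent in the start-site regions than in the other common regions, with the smallest difference from regions inside genes. Within 100 bp of the TT1 summit, GAGAGAG was found in 875 of 2451 start-site regions (35.7%, 33.8 to 37.6), and in 11.2% of the upstream, 25.5% of the inside-gene and 10.3% of the distal regions. By Fisher's exact test the odds ratio was 4.40 against upstream regions (3.54 to 5.48, adjusted p = 1.57e-49), 1.62 against regions inside genes (1.32 to 1.99, adjusted p = 7.86e-06) and 4.82 against distal regions (3.89 to 5.96, adjusted p = 1.15e-58). The tests were two-sided, over regions of the same 3 libraries, adjusted by Benjamini-Hochberg over 18 tests, of which 11 passed 0.05. GAGAGAG kept its call against all 3 classes under every alternative tried. The repeat is also more frequent near start sites in general. The share in the start-site regions was 2.33 times that in windows around all protein-coding start sites at the same offsets (15.3%), and 2.79 times that at the 15029 start sites with no peak within 1000 bp (12.8%). The share in the upstream regions was 2.13 times that of windows at their own offsets (5.24%), so that relative to position these classes were closer than the odds ratio shows. Regions inside genes and distal regions have no such background here.

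The telo box AAACCCTA was in 113 start-site regions (4.61%), and in 1.28% of upstream, 2.24% of inside-gene and 0.846% of distal regions. Its odds ratios were 3.73 (adjusted p = 2.41e-06), 2.11 (adjusted p = 0.0140) and 5.67 (adjusted p = 3.65e-09) by Fisher's exact test. Against all protein-coding start sites at the same offsets the order turned, with 4.61% in the start-site regions and 6.34% in all windows, a ratio of 0.727. The exact test's call against regions inside genes was lost with 1 TSS per gene (adjusted p = 0.102), with a window of 100 bp around the TSS (0.631) and with a search within 50 bp of the summit (0.154).

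ACGTG was in 735 of 2451 start-site regions (28.2 to 31.8%), below its share upstream (35.8%, odds ratio 0.767, adjusted p = 0.00286, Fisher's exact test) and in distal regions (39.7%, 0.652, adjusted p = 1.26e-07). Against regions inside genes (30.7%) the exact test found no difference, with an odds ratio of 0.967 (0.795 to 1.18, adjusted p = 0.808). The full G-box CACGTG was in 298 start-site regions (12.2%) and in 13.4, 13.1 and 16.4% of the upstream, inside-gene and distal regions. Only the difference from distal regions passed the exact test (odds ratio 0.708, adjusted p = 0.00259), and it was lost when the overlap with NTT replicate 2 was not required (0.952, adjusted p = 0.611). Both words were still more frequent than around all protein-coding start sites, where ACGTG was in 17.8% and CACGTG in 4.73% of windows. The ratio for CACGTG was 2.57 at start sites and 5.07 upstream.

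The W-box was in 662 start-site regions (27.0%), compared with 31.3% of upstream regions (odds ratio 0.811, adjusted p = 0.0218, Fisher's exact test), 33.1% of inside-gene regions (0.748, adjusted p = 0.00804) and 29.9% of distal regions (0.868, adjusted p = 0.128). The exact test's upstream call was lost with a −log10 q of at least 20 (adjusted p = 0.402), with summits within 100 bp (0.128) and with a search within 50 bp (0.322). Its inside-gene call was lost with the stricter q (0.0894) and with start sites of protein-coding genes alone (0.172). Over all protein-coding start sites the W-box was in 20.5% of windows. Site II elements were in 15.3% of start-site regions and in 13.8 to 15.4% of the others, and no comparison passed. None of the 6 words was found in 583 start-site regions (23.8%).

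**Figure D4:**
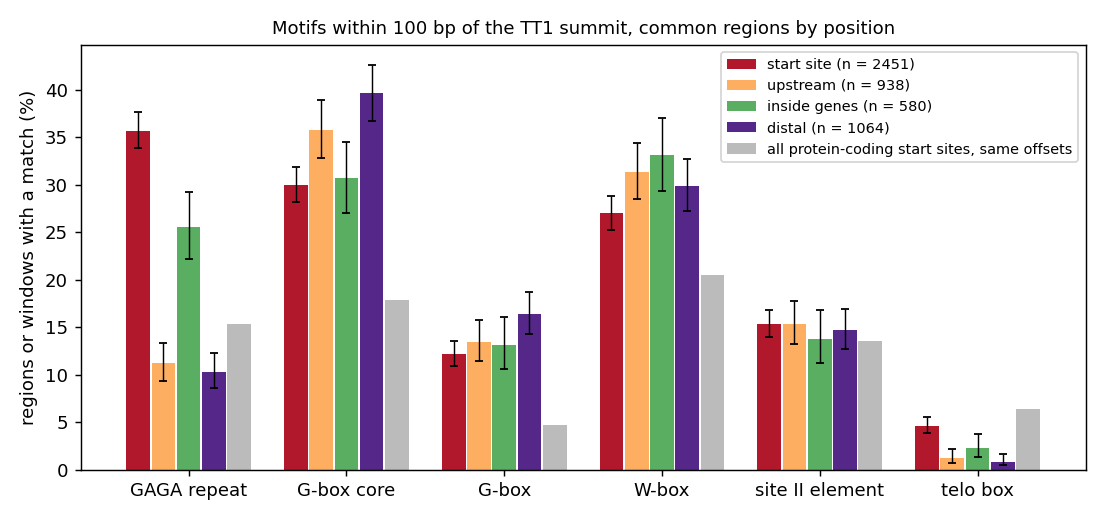
Share of common regions with a match within 100 bp of the TT1 summit (vertical axis, %), for 6 words and 4 position classes, beside the share in windows around all protein-coding start sites at the offsets of the start-site regions. Error bars are 95% Wilson intervals. The GAGA repeat is in 35.7% of start-site regions, against 11.2% upstream, 25.5% inside genes and 10.3% in distal regions.

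GAGA repeats crowded around the summit, and other words did not do so to the same degree. In the start-site regions GAGAGAG had 8.15 matches per kb within 25 bp of the TT1 summit, 4.14 at 50 to 100 bp and 1.76 beyond 200 bp. Overlapping matches within a long repeat each count, and each CACGTG also counts on both strands as ACGTG. The densities of different words are thus not on the same scale. ACGTG was most frequent 50 to 100 bp away, with 2.87 per kb, compared with 2.35 within 25 bp and 1.10 beyond 200 bp. CACGTG had 0.763 per kb at 50 to 100 bp and 0.588 within 25 bp. The W-box varied little, between 1.27 and 1.83 per kb. A GAGAGAG match lay within 20 bp of the TT1 summit in 379 regions, ACGTG in 180 and a W-box in 158.

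The repeats lay mostly downstream of the TSS and on the template strand. Among the 2249 start-site regions of protein-coding genes, GAGAGAG was on the template strand of the first 200 bp downstream in 732 (32.5%, 30.6 to 34.5), and over all protein-coding genes in 15.7%. On the coding strand of the same stretch it was in 272 (12.1%, 10.8 to 13.5), and over all genes in 6.55%. In the 200 bp upstream it was on the template strand in 6.31% and over all genes in 3.53%. The strand preference was thus present over all genes too, and both strands were more often matched at the regions. The highest density was 165 template-strand matches per 1000 start sites from 20 to 39 bp downstream, against 42.4 over all genes. CACGTG peaked on the other side of the TSS, from 80 to 61 bp upstream, with 24.5 matches per 1000 start sites and 10.7 over all genes. The TATA sequence TATAAA, searched after these values were seen, had 66.3 matches per 1000 start sites on the coding strand from 40 to 21 bp upstream, and 63.5 over all genes.

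**Figure D5:**
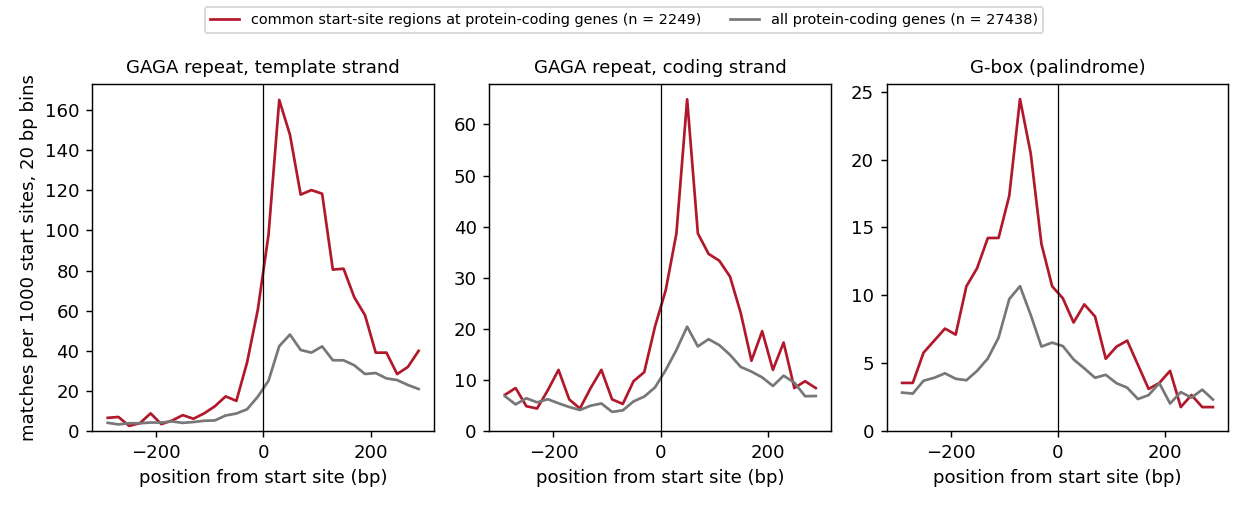
Matches per 1000 start sites (vertical axis, 20 bp bins) by distance from the TSS, for the GAGA repeat on each strand and for the G-box, at the 2249 common start-site regions whose nearest gene is protein-coding and at 27438 protein-coding genes. The template-strand repeat reaches 165 from 20 to 39 bp downstream against 42.4 over all genes, and the G-box 24.5 from 80 to 61 bp upstream against 10.7.

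The GAGA repeat and ACGTG divided the regions to some degree. ACGTG was in 189 of the 875 regions with GAGAGAG (21.6%, 19.0 to 24.4) and in 546 of the 1576 without it (34.6%, 32.3 to 37.0). At regions with GAGAGAG the median fold enrichment was 8.30 in NTT replicate 1, compared with 7.53 without, and 4.23 in NTT replicate 2, compared with 4.01. In TT1 it was 4.66 with and 4.62 without. The 404 regions with 3 or more matches had 8.46 in NTT replicate 1, 4.27 in NTT replicate 2 and 4.57 in TT1. Regions with CACGTG went the other way in NTT replicate 1, with 7.35 compared with 7.87 without it, and had 4.22 and 4.06 in NTT replicate 2 and 4.71 and 4.62 in TT1. All of these differences were small beside the quartiles of each group, and peak height took part in the selection of the regions.

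The regions with the most GAGAGAG matches varied in height. AT3G55960 had 45 matches, the summits at −80 bp (TT1), −78 bp and −119 bp (NTT), and fold enrichments of 5.54, 10.3 and 4.61. AT5G24610 had 35 matches with 5.24, 14.6 and 5.67, of which the NTT replicate 1 value was the 18th highest of the 2451, and AT4G17950, of an AT-hook protein, had 35 with 4.62, 8.25 and 3.95. *HB16*, of an HD-ZIP factor, had 22 matches and 6.06, 13.5 and 5.06, and AT1G09970, among the 10 best-ranked regions, had 20. *SERK2*, of a co-receptor kinase, had 12 matches and 6.60, 12.0 and 5.90.

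All 2080 words of 6 bases, each counted along with its reverse complement, were counted within 100 bp of the TT1 summits and set against all protein-coding start sites at the same positions. CGCGCG led with 46 matches and a ratio of 3.61, and CACGCG followed with 196 matches and 2.98. AGAGAG had rank 5, with 4360 matches and a ratio of 2.70, and CACGTG rank 8, with 345 matches and 2.65. CGCG was part of 11 of the 20 leading words. CGCG and CGTG are known as cores of the sites of calmodulin-binding CAMTA factors. The windows of the regions held 38.7% G and C on average, compared with 35.4% in the windows of all start sites, and the part of base composition in these ratios was not tested. The 11 words with CGCG had 18 to 196 matches each over the 2451 windows, far fewer than AGAGAG.

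By share, most of the lists of regulators had a region more often than the 8.19% of all protein-coding genes. MYB genes and heat shock factors were exceptions. P450 enzymes, ribosomal proteins, histones and F-box proteins had one less often. These counts have no test, and the lists were taken by symbol or product name. The number of genes in a list is thus not necessarily the size of the family. For heat shock factors (1 of 18), histones (2 of 47) and JAZ genes (2 of 10) the difference rested on few genes. The share of bHLH and PIF genes (10.7%) was near the background. The shares are descriptions, and no conclusion on the families is drawn from them. A region was found at 16 of 73 WRKY genes (21.9%), 5 of 23 TCP genes (21.7%) and 11 of 51 Aux/IAA and ARF genes (21.6%). It was found at 2 of 10 JAZ genes and at 20 of 110 genes of the ERF and DREB list (18.2%). Some genes of the ERF and DREB list are annotated only as integrase-type DNA-binding proteins, so not all need be ERF or DREB genes. Further lists had a region as follows. It was found at 11 of 68 genes of PP2C phosphatases (16.2%), 13 of 83 homeobox genes (15.7%), 118 of 837 protein kinase genes (14.1%), 11 of 84 NAC genes (13.1%) and 15 of 140 bHLH and PIF genes (10.7%). Below the background were MYB genes (7 of 124), ribosomal protein genes (19 of 338), heat shock factors (1 of 18), cytochrome P450 genes (12 of 249), histone genes (2 of 47) and F-box genes (19 of 653). A region was also found at 6 of 625 tRNA genes, which are not among the genes of that background. Genes of photosystem and light-harvesting proteins, which are strongly transcribed in leaves, were at 10 of 68 (14.7%). The counts moved with the settings. With a −log10 q of at least 20 a region was at 5 of 73 WRKY genes (6.85%), beside 5.43% of all protein-coding genes, and heat shock factors, with 1 of 18 (5.56%), were then no longer below the background. Without NTT replicate 2, where the background was 12.8%, a region was at 30 WRKY genes (41.1%), 32 bHLH and PIF genes (22.9%), 195 protein kinase genes (23.3%), 19 PP2C genes (27.9%) and 22 cytochrome P450 genes (8.84%).

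WRKY proteins regulate defence and senescence and bind W-boxes. Of the 16 WRKY regions, 10 held a W-box, 9 GAGAGAG and 6 ACGTG, without a test. Over all 2451 start-site regions the W-box was in 662 (27.0%), GAGAGAG in 875 (35.7%) and ACGTG in 735. At *WRKY7* the summits were at −9 bp (TT1), 1 bp and 16 bp (NTT), with fold enrichments of 5.99, 13.6 and 6.37 and a W-box beside the TT1 summit. *WRKY18* had 6.58, 11.0 and 5.17, and *WRKY6* 6.67, 9.44 and 3.73. *WRKY6* was thus below the median of 4.07 in NTT replicate 2. NAC regions included, besides *NAC102*, *NAC019*, a gene of abscisic acid and jasmonate responses, with 7.73, 12.0 and 5.50 and a G-box, and *NAC3* with 6.80, 9.11 and 5.10 and also a G-box. In the ERF and DREB list, *ERF9* had 5.59, 12.7 and 6.66. *SMZ*, a repressor of flowering in the same list, is annotated only as an integrase-type DNA-binding protein. It had 6.72, 14.8 and 4.53 with 9 GAGAGAG matches.

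Aux/IAA proteins repress auxin responses and ARF proteins bind auxin response elements. Of their 11 regions, the GAGA repeat was found in 7, the W-box in 1 and ACGTG in none, also without a test. *IAA18* had fold enrichments of 7.19, 11.1 and 4.92, with summits at 31, 51 and 39 bp, and *IAA2* had 6.29, 10.3 and 6.40. *TIR1*, of the F-box auxin receptor, had 7.82, 6.69 and 4.76, so that it was high in TT1 and below the median of 7.79 in NTT replicate 1. Of the 15 regions of bHLH and PIF genes, 10 held the GAGA repeat, 6 ACGTG and 3 a W-box. *PIL5* and *PIF3*, which encode phytochrome-interacting factors that repress light responses, were among those with no match to any of these words. *PIL5* had 9.58, 10.8 and 6.39, and *PIF3* 7.04, 14.1 and 5.57. Homeobox genes also included *HB6*, of a target of abscisic acid signalling, with 7.05, 11.0 and 4.14, where the TT1 summit was at −124 bp and the NTT summits at 49 and 27 bp.

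Hormone and stress genes of other kinds were among the members. *ABI1*, of a PP2C phosphatase that restrains abscisic acid signalling, had 6.19, 12.5 and 4.34, with summits at 174, 135 and 156 bp. *BAS1* and *CYP72C1*, of cytochrome P450 enzymes that inactivate brassinosteroids, had 6.91, 11.1 and 7.12, and 6.42, 10.7 and 3.89. These were the highest-ranked of the 12 cytochrome P450 regions, with 7 and 5 GAGAGAG matches. Of the 12 regions, 3 held GAGAGAG, 5 ACGTG and 4 a W-box. *ADC2*, of arginine decarboxylase in polyamine synthesis, had 7.22, 14.8 and 5.39 and an ACGTG match near the summit. *TCP14*, of a factor of cell growth and immunity, had 6.17, 12.7 and 6.44. *PSBO2*, of the oxygen-evolving complex of photosystem II, had 6.29, 8.31 and 4.91.

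Of 7 genes that the study names with its ChIP-seq data, *WSIP2*, *JAZ8*, *KAN* and *BLH4* carried a start-site region and *JAZ5*, *ABO3* and *ULT1* carried none by this rule. *WSIP2*, of a TOPLESS-type corepressor, had fold enrichments of 5.42, 14.5 and 6.80. *KAN*, of a GARP factor of abaxial organ identity, had 6.26, 14.1 and 6.16 with summits at 175, 207 and 173 bp. *JAZ8*, of a repressor of jasmonate signalling, had 5.46, 11.0 and 3.73. *BLH4*, of a BELL homeodomain protein, had 2.92, 12.6 and 3.58, so that it was far above the median in NTT replicate 1 and below it in TT1 and in NTT replicate 2. GAGAGAG had 5 matches in the window at *WSIP2*, 9 at *BLH4* and 2 each at *KAN* and *JAZ8*. Other words were found in the same windows within 100 bp of the TT1 summit. *WSIP2* also held ACGTG and a W-box, *BLH4* a W-box, and *JAZ8* a G-box but no W-box. At *KAN* no other searched word was found.

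A start site of another gene on the opposite strand, divergent and at most 500 bp away, was found at 338 regions (13.8%). Among the protein-coding members the share was 13.4% (12.0 to 14.9), measured from the TSS nearest to the TT1 summit. Over all protein-coding genes it was 14.8%, measured from the gene boundary, so that these shares differ in their starting point. The TT1 summit lay between the start sites of the pair in 117 of the 338. Both genes of a pair had a region of their own in 7. The highest-ranked pair was AT1G08280, of a glycosyltransferase, with AT1G08270 at 370 bp, with fold enrichments of 7.09, 14.3 and 6.63. *PEX13*, of a peroxisome import protein, and AT3G07565 started 36 bp apart, with 6.83, 13.0 and 7.04.

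The limit of 200 bp cut through a continuous range. Just inside it upstream were *PHI-1* (−200 bp, TT1 fold enrichment 4.15) and *GRP-3* (−200 bp, 4.48), and 1 bp beyond the limit *AIRP2* (3.29) and *UGT73B4* (4.71). Downstream AT4G09115 (200 bp, 6.75) and *PCME* (200 bp, 3.43) were inside, and AT1G33610 (4.96) and AT3G02775 (5.95) were 1 bp outside. The NTT summits of *GRP-3* were at −1 and 9 bp, and those of *PHI-1* at −436 and −213 bp, so that regions at the limit differed in where the other libraries placed the peak.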

How the data were processed

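Peaks of 1 *Dex:TT1-GFP* and 2 *Dex:NTT-GFP* ChIP libraries were used. By the methods of the study and the notes of its submitters, the authors mapped 50 bp single-end reads to TAIR10 with BWA, checked them with FastQC, handled alignments with SAMtools and Picard and called peaks per library with MACS2 version 2.1.2 over the input. The deposited score is 10 times the −log10 q-value, the deposited fold enrichment is a ratio at the summit, and the authors' −log10 values of p and q hold no replicate error. The lowest −log10 q was 9.01.

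Start sites were taken from every transcript of the RefSeq annotation of TAIR10.1 (51778 sites of 37899 nuclear genes), whose chromosome names and lengths suit the files. Motifs were searched within 100 bp of the TT1 summit. Background windows of protein-coding genes were weighted to the offsets of the regions. Position classes were compared by two-sided Fisher's exact tests (scipy version 1.17.1), and functions were tested on simulated data. Members, gene lists and words were chosen with earlier results of these data known. Named genes are the 10 regions with the best mean rank, genes the study names, up to 3 per list, those at the window limits, those with the TT1 summit within 20 bp of a word, the leading divergent pairs and those with the most GAGAGAG matches. Genes of other families that share a symbol were removed from the lists by product name. Alternatives were other overlaps, thresholds, start sites, windows and libraries.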

Additional observations from a re-analysis of the deposited data

How the results depend on the processing

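No odds ratio that had passed the test changed direction under the alternatives that apply to odds ratios. Of those that had not, 15 values lay on the other side of 1, none of them past the threshold, such as CACGTG against upstream regions (1.09) and ACGTG against regions inside genes (1.10), both without NTT replicate 2. Of the gene counts of the lists under alternatives, 31 moved by over 1.5 times and 113 did not. Among the lists, heat shock factors crossed the background with the stricter q (5.56% against 5.43%). The number of regions was 1629 with a −log10 q of at least 20 in every library, and 2590 without NTT replicate 1 and 3865 without NTT replicate 2. The share of protein-coding genes with a region was 6.66% with both NTT summits within 100 bp of the TT1 summit, 5.43% with the stricter q, 7.66% with 1 start site per gene and 5.75% with 100 bp around the start site, and 8.63 to 12.8% when either NTT library was left out. The median distance between summits was 21 bp (NTT replicate 1) and 23 bp (NTT replicate 2) with summits within 100 bp, and 24 and 26 bp with the stricter q. The first of these follows from the setting itself, and the cause of the others was not tested. Of 180 odds ratios under alternatives, 162 kept their side of the threshold, 9 lost their call and 9 gained one. The cause was not tested. With a search over the whole TT1 peak the share of regions with GAGAGAG was 46.8%, and within 50 bp it was 25.9%. No paired analysis was possible because the replicate numbers are shared only by NTT ChIP and input libraries, and the inputs have no peak list. With 1 TT1 library and unknown depth, a start site without a common region is one where none was detected.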
